A study of Mus musculus with 7 samples.

Results

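The 8 genes described here, S100b, Sox10, Gfap, Elavl4, Uchl1, Tubb3, Ret and Vip, are used as markers of the enteric nervous system, and were taken from a count table of 43346 genes in 7 mouse colon tumors by their symbols alone. Of the 8, 5 passed the filter on low counts (Gfap, Uchl1, Tubb3, Ret and Vip), while S100b, Sox10 and Elavl4 did not. Myh11, the smooth muscle myosin heavy chain, was followed beside them, since the enteric plexuses lie in and next to the muscle wall. All recipients were lethally irradiated WT C57BL6/J mice by the labels (congenic CD45.1 mice by the methods) that received BM from Mx1-Cre+ donors treated with poly(I:C), and all then underwent colitis-associated cancer (CAC) induction with 10 mg/kg azoxymethane and 3 cycles of 3% dextran sulfate sodium. In 4 tumors the BM was heterozygous for Dnmt3a (Dnmt3a+/Δ, given as Dnmt3a(+/-) by the labels), and in 3 control tumors it was Dnmt3a+/+. The recipients' age is 8 weeks in the labels, and the methods give a younger age at transplantation. The Mx1 promoter drives Cre in blood-forming cells and other interferon-responsive cells of the donor. Only BM was transplanted, so neurons, glia and muscle of the colon are taken to come from the WT host in both groups. Each library is 1 whole tumor, and p-values measure the spread between these tumors.

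The enteric nervous system arises from neural crest cells that colonize the gut. Ret, the receptor tyrosine kinase for the glial cell line-derived neurotrophic factor (GDNF) family ligands, and the endothelin receptor Ednrb are needed for that colonization, and Sox10 is the transcription factor that maintains the progenitors and the glia. Enteric neurons coordinate contraction, secretion and blood flow, in part through the peptide Vip, and enteric glia surround them. In a whole tumor, fewer cells of a type and less RNA per cell cannot be told apart.

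Total counts ranged from 38472738 to 64314999 per tumor. Values are given as CPM, counts scaled to the same library size after trimmed-mean (TMM) normalization, and 3 counts correspond to 0.0468 to 0.0917 CPM, depending on the tumor. Control tumors 1 and 2 and Dnmt3a+/Δ tumors 1 and 2 carry the label prefix BMT18, and control tumor 3 and Dnmt3a+/Δ tumors 3 and 4 the prefix BMT8. The labels of Dnmt3a+/Δ tumors 2, 3 and 4 also carry a further number 2, which those of Dnmt3a+/Δ tumor 1 and of the control tumors lack. The meaning of that number is not given, and its part in the group differences was not tested. Dnmt3a itself was at 20.2 to 24.2 CPM in control tumors and at 22.0 to 43.0 CPM in Dnmt3a+/Δ tumors, a whole-tumor level that does not check the donor genotype. A pair of tumors stood apart in their tissue markers. Control tumor 3 had 24 counts of Myh11, against 1292 to 14600 in the other tumors, and Dnmt3a+/Δ tumor 2 had the highest summed level of 6 leukocyte genes (427 CPM against 37.2 to 81.1 CPM elsewhere) and of 6 fibroblast genes (993 CPM against 149 to 355 CPM).

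Vip and Gfap, a neuronal peptide and a glial filament protein, both had 0 counts in control tumor 3 and their highest level in Dnmt3a+/Δ tumor 2, so the 250 bases upstream of their RefSeq start sites are shown. Capitals mark TGACG, the half-site of the cyclic AMP response element, on either strand. Build GRCm38.p6, Vip chr10:5638968-5639217 (plus strand) and Gfap chr11:102897201-102897450 (minus strand), each 5′ to 3′ along its gene:
Vip: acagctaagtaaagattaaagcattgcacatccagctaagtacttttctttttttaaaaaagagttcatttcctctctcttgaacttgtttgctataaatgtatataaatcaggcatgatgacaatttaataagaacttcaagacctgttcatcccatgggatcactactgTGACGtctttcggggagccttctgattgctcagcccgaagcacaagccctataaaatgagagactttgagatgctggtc
Gfap: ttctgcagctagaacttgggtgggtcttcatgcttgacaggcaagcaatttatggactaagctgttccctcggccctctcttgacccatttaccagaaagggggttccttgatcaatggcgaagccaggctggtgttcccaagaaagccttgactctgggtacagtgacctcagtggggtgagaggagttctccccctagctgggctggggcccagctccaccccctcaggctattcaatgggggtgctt
The Vip window held 1 half-site, which began 79 bases before the start site, and the Gfap window held none. Windows were found for 6 of the 8 genes (9 windows, counting alternative starts), and TGACG was found in Vip and in 3 windows of Elavl4, of which 2 overlap and hold the same site. Over all 32851 promoter windows of this length, 17.8% held it. The full palindrome TGACGTCA, which contains the half-site and was found in 1.55% of all windows, was in neither of the printed ones. These matches describe the sequence and say nothing of which factors bound it.

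The defining glial genes were close to the floor of detection in every tumor. S100b, a calcium-binding protein of glia, had 4, 6 and 2 counts in control tumors 1, 2 and 3 and 8, 8, 5 and 4 counts in Dnmt3a+/Δ tumors 1 to 4. Sox10 had 2, 4 and 0 counts in control tumors and 0, 8, 2 and 0 in Dnmt3a+/Δ tumors. Both genes overlapped between groups, and 16 Sox10 counts were found in all 7 tumors together. With no filter on low counts, edgeR gave a log2 fold change of 0.68 (SE 0.70, adjusted p = 0.718) for S100b and 0.36 (SE 1.41, adjusted p = 0.954) for Sox10. The 0 counts of Sox10 in control tumor 3 allow a level of up to 0.0917 CPM when 3 counts are taken as the limit, which covers counting error only.

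Gfap, an intermediate filament of glia, was at 0.483, 0.343 and 0 CPM in control tumors 1, 2 and 3 (18, 22 and 0 counts). It was at 0.524, 0.570, 0.122 and 0.216 CPM in Dnmt3a+/Δ tumors 1 to 4. The 4 tumors with the prefix BMT18 were all above the 3 with the prefix BMT8, and the groups overlapped. The means were 0.358 ± 0.222 CPM (SD, n = 4) in Dnmt3a+/Δ tumors and 0.276 ± 0.249 CPM (SD, n = 3) in control tumors, a log2 fold change of 0.36 (SE 1.02) with a Benjamini-Hochberg adjusted p of 0.932 (edgeR's quasi-likelihood test). Without control tumor 3 the log2 fold change was -0.20, and with the label prefix as a covariate it was 1.08 (SE 0.78, adjusted p = 0.536 by edgeR).

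Among the other 8 genes listed for enteric glia, 5 were tested. Foxd3 and Cdh19, which mark neural crest and glial cells, had at most 8 counts in a tumor. None was called by edgeR, in which 5.2% of tested genes were lower with an unadjusted p under 0.05. Ngfr, the low-affinity neurotrophin receptor, had a log2 fold change of 0.52, and Entpd2, an ectonucleotidase that hydrolyses ATP, had the lowest of the 5 (log2 -1.03, unadjusted p = 0.00374 by edgeR's quasi-likelihood test). Entpd2 was at 17.9, 19.3 and 16.5 CPM in control tumors and at 11.2, 6.01, 10.1 and 7.70 CPM in Dnmt3a+/Δ tumors, so the groups did not overlap, as in 6.32% of tested genes in the lower direction. DESeq2 called it lower (adjusted p = 0.0191), with 0.417% of all tested genes. Summed CPM of the list followed Erbb3, a neuregulin receptor, which gave 95.9 to 266 CPM, far above the defining glial genes.

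The neuronal genes were better detected than the glial ones, with the exception of Elavl4. Elavl4, a neuronal RNA-binding protein, had 3, 10 and 0 counts in control tumors and 7, 12, 8 and 11 in Dnmt3a+/Δ tumors. On the CPM scale these were 0.0806, 0.156 and 0 against 0.175, 0.244, 0.162 and 0.297. All 4 Dnmt3a+/Δ tumors were thus above every control tumor, but 0.156 and 0.162 CPM each lay within the 95% counting interval of the other. With no filter on low counts the log2 fold change was 1.35 (SE 0.93, adjusted p = 0.699 by edgeR). Of the 8 genes, 2 had higher, non-overlapping levels in Dnmt3a+/Δ tumors, Elavl4 and Ret, and none had lower ones, whereas 4.63% of the 24352 genes with any count were higher without overlap. Leaving out both control tumor 3 and Dnmt3a+/Δ tumor 2, the same 2 genes were higher without overlap, Sox10 (0 to 4 counts) was lower without overlap, and the share of all genes with higher, non-overlapping levels was 11.8% with these fewer tumors.

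Uchl1, the neuronal ubiquitin hydrolase also known as PGP9.5, was at 2.18, 2.00 and 0.917 CPM in control tumors 1, 2 and 3. It was at 1.92, 4.46, 5.66 and 3.05 CPM in Dnmt3a+/Δ tumors 1 to 4. Dnmt3a+/Δ tumors 2, 3 and 4 were above every control tumor, and tumor 1 lay within the control range. The means were 3.77 ± 1.63 CPM (SD, n = 4) and 1.70 ± 0.681 CPM (SD, n = 3), and the log2 fold change of 1.15 (SE 0.50) did not pass the test (adjusted p = 0.453 by edgeR, 0.238 by DESeq2).

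Tubb3, a neuronal beta-tubulin, fell into high and low tumors that did not follow the graft. It was at 3.92, 1.28 and 1.31 CPM in control tumors 1, 2 and 3 and at 5.74, 6.58, 1.58 and 1.00 CPM in Dnmt3a+/Δ tumors 1 to 4. Control tumor 1 and Dnmt3a+/Δ tumors 1 and 2 were high and the other 4 low, with no value between 1.58 and 3.92 CPM. The log2 fold change was 0.78 (SE 0.77, adjusted p = 0.743 by edgeR). Its exons share a strand with the readthrough gene Gm20388, which had 1008 to 2895 counts per tumor against 37 to 323 for Tubb3, so that the division of reads between them is uncertain.

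Vip was at 0.967, 0.858 and 0 CPM in control tumors 1, 2 and 3 (36, 55 and 0 counts). In Dnmt3a+/Δ tumors 1 to 4 it was at 1.10, 2.61, 0.467 and 0.594 CPM (44, 128, 23 and 22 counts). The groups overlapped, and Dnmt3a+/Δ tumor 2 was above all others. The 95% counting interval of the 0 in control tumor 3 reached 0.113 CPM (exact Poisson), below the level of every other tumor. The means were 1.19 ± 0.982 CPM (SD, n = 4) and 0.608 ± 0.530 CPM (SD, n = 3), with a log2 fold change of 0.96 (SE 1.13, adjusted p = 0.803 by edgeR). With the label prefix as a covariate it was 1.87 (SE 0.90, adjusted p = 0.378 by edgeR). Vipr1, a receptor for the peptide, was at 87.0 to 170 CPM in Dnmt3a+/Δ tumors and 147 to 230 CPM in control tumors (log2 -0.58), and Vipr2, the other receptor, was at 0.142 to 0.713 CPM in all tumors (log2 -0.15). Neither passed the test.

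Of 20 other neuronal genes, 12 were tested and 8 had 0 counts in control tumor 3. Chat, which makes acetylcholine and defines cholinergic neurons, was near the floor, with 0 to 4 counts in a tumor. By edgeR none was called, and the unadjusted p was under 0.05 in 1 in the higher and 1 in the lower direction, beside 5.83% and 5.2% of all tested genes. Syt1, a synaptic vesicle calcium sensor, was the highest (log2 2.15), at 0.322 to 0.856 CPM in control tumors and 0.673 to 4.52 CPM in Dnmt3a+/Δ tumors. Nos1, which makes nitric oxide, was the next highest (log2 1.57). The lowest were Stmn2, a regulator of microtubules (log2 -1.17), and Tac1, the precursor of substance P (log2 -0.97). Tac1 was at 14.4 to 21.2 CPM in control tumors and 8.04 to 10.00 CPM in Dnmt3a+/Δ tumors. The groups did not overlap, as in 6.32% of tested genes in the lower direction. The levels of Tac1 were far above those of Elavl4, which reached at most 0.297 CPM. For Tac1 the unadjusted p was 0.00173 by edgeR's quasi-likelihood test (adjusted 0.361). DESeq2 gave it an adjusted p of 0.00232 but did not call it, since its fold change did not pass the limit. The median of the 12 was 0.35 on the log2 scale, beside 0.0025 over all 15810 tested genes. The glial and neuronal label thus had little support in the defining genes, and the 8 genes are described by name.

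**Figure D1:**
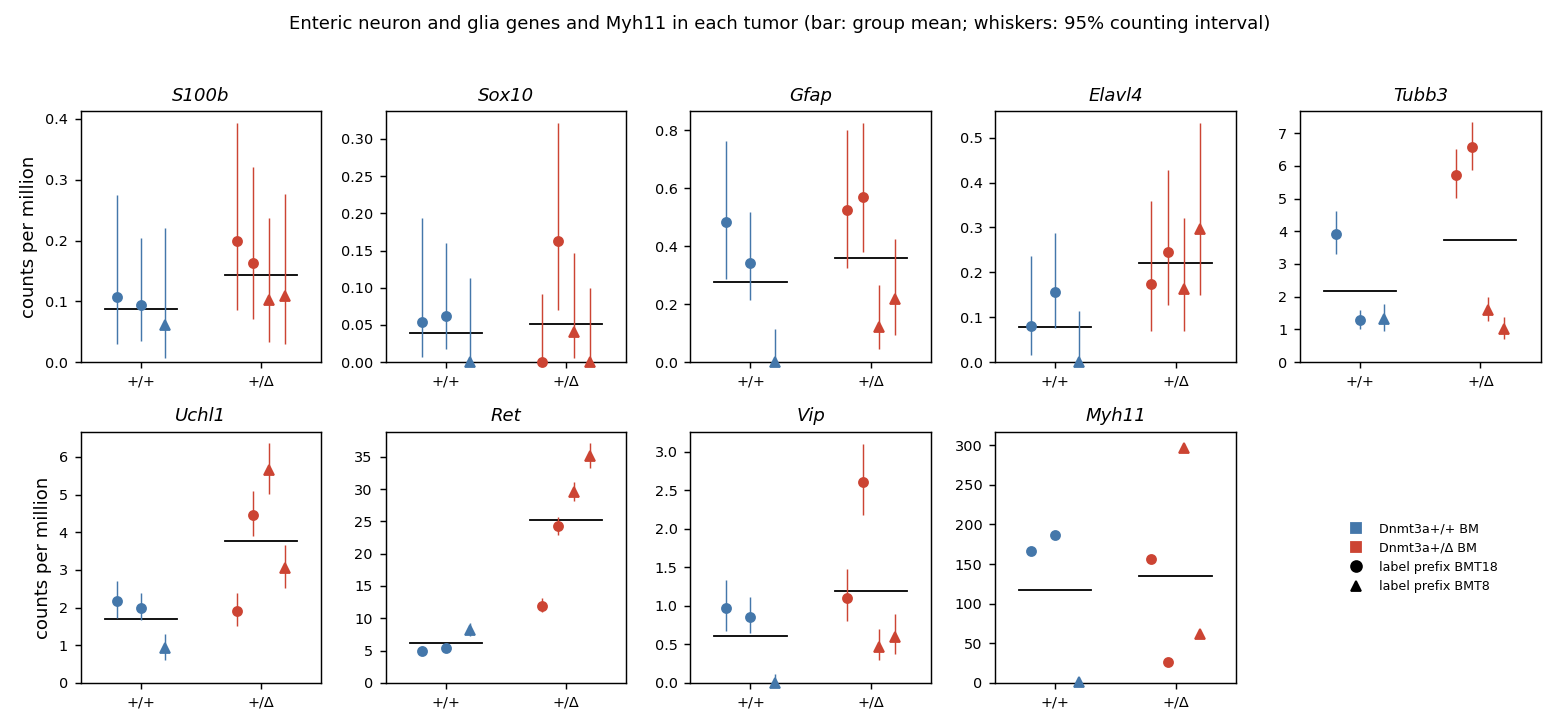
CPM (vertical axes, each starting at 0) of the 8 genes and Myh11 in 3 control and 4 Dnmt3a+/Δ tumors. Points are tumors, circles with label prefix BMT18 and triangles BMT8, whiskers are 95% exact Poisson counting intervals and black bars group means. All 4 Dnmt3a+/Δ tumors lie above the controls for Ret, and control tumor 3 is at 0 for Sox10, Gfap, Elavl4 and Vip.

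Ret was the gene in which the groups were most clearly separated. It was at 4.97, 5.41 and 8.22 CPM in control tumors 1, 2 and 3 (185, 347 and 269 counts). In Dnmt3a+/Δ tumors 1 to 4 it was at 11.9, 24.2, 29.6 and 35.2 CPM (479, 1189, 1457 and 1302 counts). Every Dnmt3a+/Δ tumor was above every control tumor, and the 95% counting intervals of 8.22 and 11.9 CPM did not overlap. The 3 highest, Dnmt3a+/Δ tumors 2, 3 and 4, are those with the further number 2 in their labels, as they were for Uchl1. The means were 25.2 ± 9.92 CPM (SD, n = 4) and 6.20 ± 1.77 CPM (SD, n = 3), a 4.07-fold difference by edgeR (log2 2.03, SE 0.40).

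By edgeR's quasi-likelihood test the unadjusted p for Ret was 0.00107, rank 32 of 15810 genes, but the adjusted p was 0.361 and Ret was not called. No gene passed this call (0%), and 5.83% of tested genes were higher with an unadjusted p under 0.05. Ret was 1 of 5 tested genes of the set in that class. DESeq2 called Ret (log2 2.04, adjusted p = 0.000267), as it did 1.51% of genes in the higher direction. It called none of Uchl1, Tubb3 and Vip and gave Gfap no adjusted p. Ret was chosen with earlier results of these tumors known, so its call is a description rather than independent evidence.

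Within both label prefixes every Dnmt3a+/Δ tumor was above every control tumor in 5 of the 8 genes (S100b, Gfap, Elavl4, Vip and Ret), as in 9.15% of genes with any count. BMT8 held 1 control tumor, tumor 3, which was at 0 for Gfap, Elavl4 and Vip. For Ret the mean in BMT18 was 18.08 CPM in 2 Dnmt3a+/Δ tumors and 5.19 CPM in 2 control tumors, a ratio of 3.48. In BMT8 it was 32.4 CPM in 2 Dnmt3a+/Δ tumors and 8.22 CPM in 1 control tumor, a ratio of 3.94. The interaction of graft and prefix was 0.18 on the log2 scale (unadjusted p = 0.773 by edgeR's quasi-likelihood test), where 4.62% of genes had an unadjusted p under 0.05 and 0% passed after adjustment. With the prefix as a covariate the log2 fold change of Ret was 1.87 (SE 0.28, adjusted p = 0.261 by edgeR). Leaving out each tumor in turn gave log2 fold changes of 1.82 to 2.28 by edgeR, and DESeq2 called Ret in all 7 of these fits.

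**Figure D2:**
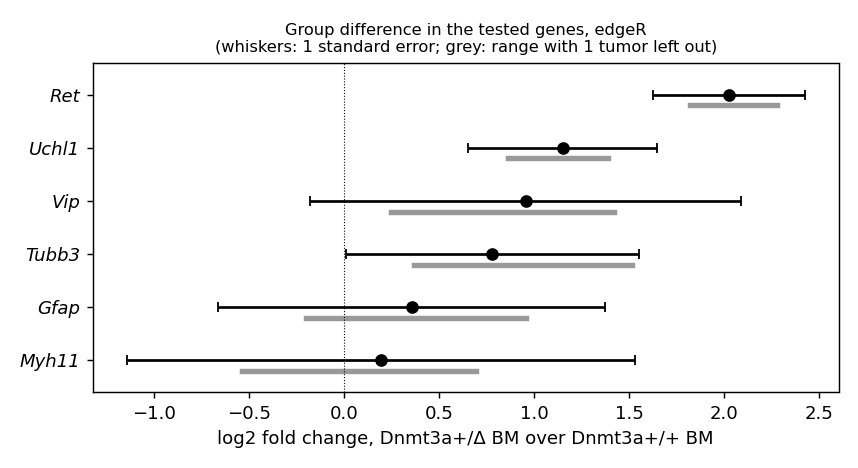
Log2 fold change of Dnmt3a+/Δ over control tumors (horizontal axis) by edgeR in the 5 tested genes and Myh11. Points are estimates, black whiskers 1 SE and grey bars the range with 1 tumor left out. For Ret, leaving out 1 tumor moved the estimate between 1.82 and 2.28, and for Gfap and Myh11 the grey bar crosses 0.

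No other gene of the Ret pathway was called. Of 11 genes of Ret and endothelin signalling, 9 were tested, none was called by edgeR or DESeq2, and 3 were above and 6 below 0 (median -0.07 on the log2 scale), whereas 50.2% of all tested genes were above 0. The ligand gene Gdnf had 1 to 18 counts in a tumor and was not tested. The ligand genes Nrtn (log2 -0.30) and Artn (log2 -0.07) did not pass the test. Of the co-receptors, Gfra1, which binds GDNF, ranged from 0.143 to 9.83 CPM over the tumors (log2 -0.82, SE 1.10), and Gfra2, which binds neurturin, had a log2 fold change of 0.95. The highest 2 of the list were Ednrb (log2 2.23) and Gfra2, and the lowest were Edn3, the ligand of Ednrb (log2 -1.57), and Gfra3 (log2 -0.88). Ednrb was at 5.66 CPM in Dnmt3a+/Δ tumor 2 and at 0.359 to 1.43 CPM in the other 6 tumors. Edn3 was at 12.6, 10.4 and 24.7 CPM in control tumors and at 10.3, 1.38, 5.30 and 4.38 CPM in Dnmt3a+/Δ tumors. The groups did not overlap, as in 6.32% of tested genes in the lower direction. The separation was narrow, with 10.36 CPM (664 counts) in control tumor 2 against 10.28 CPM (412 counts) in Dnmt3a+/Δ tumor 1.

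Some markers of other cell types also differed between the grafts. The summed level of 5 endothelial genes was 9.02 to 17.6 CPM in control tumors and 18.11 to 107 CPM in Dnmt3a+/Δ tumors, with 4 of 5 higher at an unadjusted p under 0.05 (5.83% of all tested genes) and 3 of 5 (Pecam1, Cdh5 and Kdr) called higher by DESeq2 (1.51% of all). The sum was highest in Dnmt3a+/Δ tumor 2, as were Pecam1, Cdh5, Kdr and Tek. Ret was highest in Dnmt3a+/Δ tumor 4, and of the 5 endothelial genes only Emcn was highest there too. All 11 enteroendocrine genes, which mark the hormone-secreting cells of the epithelium and share neuronal genes, were below 0 (median log2 fold change -0.66), with sums of 41.7 to 170 CPM in control tumors and 49.8 to 97.4 CPM in Dnmt3a+/Δ tumors, and none was called. Of 7 epithelial genes 6 were below 0, and Cdx2, an intestinal homeobox factor, was above (log2 0.79). Among 3 tested genes of interstitial cells of Cajal, the pacemakers of the gut wall, Etv1 (log2 0.45) and Kit (log2 0.33) were above 0 and Ano1 below (log2 -0.52), and none passed. Of 4 mesothelial genes, 1 was tested, Msln (log2 1.15), and Wt1 was at 0 in every tumor. The part of these cell types in the level of Ret was not tested.

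**Figure D3:**
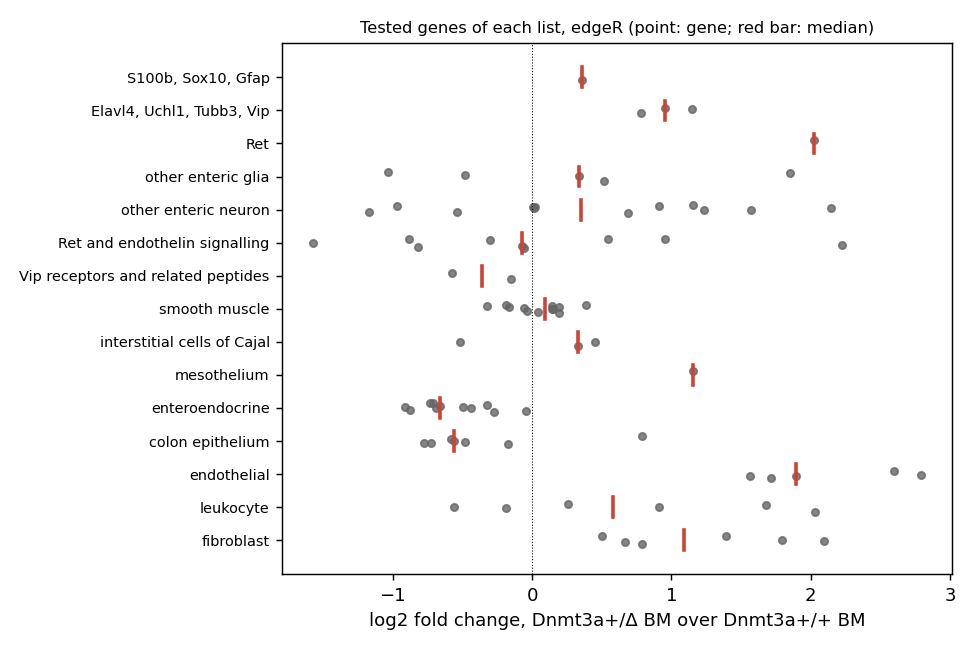
Log2 fold change of Dnmt3a+/Δ over control tumors (horizontal axis) by edgeR for the tested genes of each list (rows). Points are genes and red bars medians. Ret is at 2.03, the 12 smooth muscle genes are centred near 0 (median 0.10), and all 11 enteroendocrine genes are below 0.

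Smooth muscle genes varied far more between tumors than between grafts. Myh11 was at 166, 187 and 0.734 CPM in control tumors 1, 2 and 3 and at 156, 26.3, 296 and 61.0 CPM in Dnmt3a+/Δ tumors 1 to 4, a 404-fold range. The highest and lowest tumor were in different groups, the groups overlapped, and the log2 fold change was 0.20 (SE 1.34, adjusted p = 0.976 by edgeR). The other 11 smooth muscle genes correlated with Myh11 across tumors with Pearson's r of 0.68 to 1.00, a description over 7 tumors. Actg2, enteric smooth muscle actin, was the highest of the list by fold change (log2 0.39), and Myocd, a coactivator of muscle genes, the lowest (log2 -0.33).

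Vip and Gfap followed Myh11 only through control tumor 3. Over 7 tumors the log2 level of Vip correlated with that of Myh11 with Pearson's r = 0.73 (exact permutation p = 0.131, adjusted 0.726) and Spearman's rho = -0.036 (exact permutation p = 0.963, adjusted 0.990). For Gfap, r was 0.71 (exact permutation p = 0.115, adjusted 0.721) and rho -0.036 (exact permutation p = 0.963, adjusted 0.990). Without the 2 tumors farthest from the median of Myh11, control tumor 3 and Dnmt3a+/Δ tumor 2, r was -0.051 for Vip and -0.13 for Gfap, so that the relation no longer held. Leaving out control tumor 3 alone gave r of -0.71 for Vip and -0.44 for Gfap, and leaving out Dnmt3a+/Δ tumor 2 alone gave 0.94 and 0.84, so that the relation rests on control tumor 3.

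The other 3 tested genes did not pass either. Uchl1 had r = 0.61 (exact permutation p = 0.167, adjusted 0.748) and rho = 0.39 (exact permutation p = 0.396, adjusted 0.974), with r = 0.28 without the same 2 tumors. Tubb3 had r = 0.18 (exact permutation p = 0.809, adjusted 0.950) and rho = -0.11 (exact permutation p = 0.840, adjusted 0.979). Ret had r = 0.076 (exact permutation p = 0.917, adjusted 0.979) and rho = -0.11 (exact permutation p = 0.840, adjusted 0.979). Without the 2 tumors r was 0.26 for Tubb3 and -0.30 for Ret. In the 4 tumors of BMT18 alone, r was -0.99 for Vip and Uchl1, -0.88 for Ret, -0.63 for Gfap and -0.58 for Tubb3. Of these 4, Myh11 was at 26.3 CPM in Dnmt3a+/Δ tumor 2 and at 156 to 187 CPM in the other 3. These values of r thus largely set that tumor against the other 3. All adjustments are over 15810 genes, and none of the 5 passed.

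**Figure D4:**
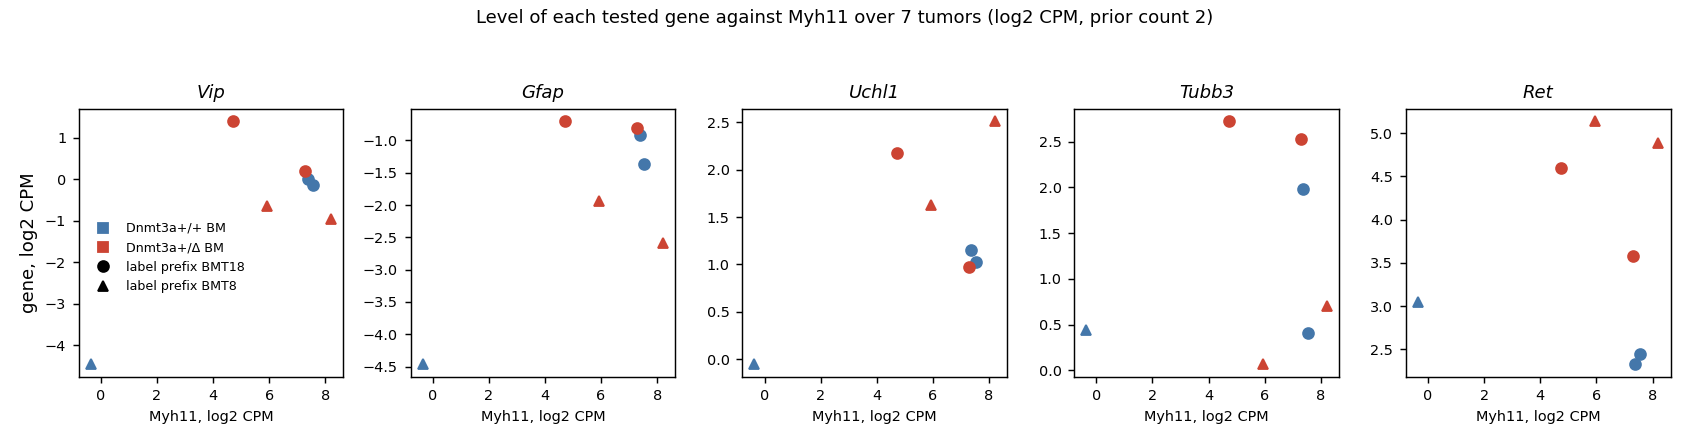
Log2 CPM of Vip, Gfap, Uchl1, Tubb3 and Ret (vertical axes) against log2 CPM of Myh11 (horizontal axes), with 1 point per tumor, blue for control and red for Dnmt3a+/Δ. Control tumor 3 lies alone at the left, and among the other 6 tumors Vip, Gfap and Ret do not rise with Myh11.

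In a fit with Myh11 as a covariate beside the graft, edgeR called 12 genes as rising with Myh11 (0.0759%), of which 7 were among the 12 smooth muscle genes, Myh11 itself included. None of the 5 tested neuron and glia genes was called: the slopes, in log2 per log2 unit of Myh11, were 0.36 for Vip (adjusted p = 0.648 by edgeR), 0.36 for Gfap (0.585), 0.13 for Uchl1 (0.571), 0.05 for Tubb3 and -0.08 for Ret (0.638). At equal Myh11 the log2 fold change of Ret was 2.19 (SE 0.41, adjusted p = 0.185 by edgeR). Ret had 2.99, 2.90 and 1121 counts per 100 Myh11 counts in control tumors 1, 2 and 3, and 7.65, 92.0, 9.98 and 57.6 in Dnmt3a+/Δ tumors 1 to 4. Myh11 varied 404-fold over the tumors and Ret 7.08-fold. For none of the 8 genes did the difference between groups in the log2 ratio pass the test (two-sided exact permutation p = 0.514 to 0.971 over 35 splits, unadjusted, smallest possible 0.0286).

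Per kilobase of exon, the mean levels over 7 tumors ran in the order Ret (2.52 ± 1.83 CPM per kb, SD, n = 7), Uchl1 (1.77 ± 1.01), Tubb3 (1.64 ± 1.25), Vip (0.277 ± 0.241), S100b (0.0803 ± 0.0313), Gfap (0.0765 ± 0.0516), Elavl4 (0.0296 ± 0.0183) and Sox10 (0.0150 ± 0.0191). The ranges of all neighbours in this order overlapped. Tubb3 was nonetheless above Vip in all 7 tumors, and Ret was above Uchl1 in 5 of 7.

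The genes most like each tested gene across the 7 tumors differed between them, by Pearson's r of log2 CPM and with no test. For Ret they were Wnt7a, a Wnt ligand (r = 0.98), Ccdc125 (0.98) and Cd244a, a receptor of natural killer cells (0.98). Wnt7a was at 0.0537, 0.0156 and 0.122 CPM in control tumors and 0.175, 1.04, 1.66 and 1.51 CPM in Dnmt3a+/Δ tumors. For Tubb3 they were Ripk2, a kinase of innate immune signalling (r = 1.00), the heat shock gene Hspa1a (0.98) and Klhl6 (0.98). Hspa1a was at 38.8, 40.3 and 55.3 CPM in control tumor 1 and Dnmt3a+/Δ tumors 1 and 2, and at 8.19 to 10.4 CPM in the other 4 tumors, the same high and low tumors as Tubb3. For Vip they were Zfp426 (0.99), Zfp229 (0.99) and Paqr3 (0.98), for Gfap Acot6 (0.98), Slc36a4 (0.97) and Zfp426 (0.97), and for Uchl1 Bbs10 (0.97), Maged2 (0.97) and Unc13c (0.97). None of these genes was among the other neuron, glia or smooth muscle genes.

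By GENCODE on GRCm38, the tested genes lie at chr6:118151745-118197718 (Ret, minus strand), chr5:66676091-66687234 (Uchl1, plus), chr8:123411424-123422015 (Tubb3, plus), chr10:5639218-5647617 (Vip, plus) and chr11:102887336-102900912 (Gfap, minus). The 3 that did not pass the filter lie at chr10:76253853-76261159 (S100b, plus), chr15:79154908-79165240 (Sox10, minus) and chr4:110203722-110351909 (Elavl4, minus), and Myh11 at chr16:14194535-14291372 (minus). Ret and Vip overlap no other annotated gene. Gfap overlaps Gm26668 (1 to 16 counts per tumor), Uchl1 overlaps Uchl1os (0 counts in every tumor) and S100b overlaps Dip2a (949 to 2538 counts), all on the opposite strand. The library kit keeps the strand, but whether it was used in counting is not given in the sources used here, so S100b and Gfap are uncertain to that extent.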

How the data were processed

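RNA from 7 whole colon tumors was poly(A)-enriched and sequenced as directional libraries. The authors trimmed reads with Trimmomatic, aligned them to mm10 with STAR 2.7.3a and made gene-level estimated counts with RSEM v1.2.31, and the deposited values are these expected counts, 100% whole numbers and not normalized. The annotation release is not given in the sources used here. Columns were matched to tumors by name.

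Group differences came from the quasi-likelihood test of edgeR 4.0.16 (R 4.3.3) with TMM sizes and filterByExpr, adjusted over 15810 genes by Benjamini-Hochberg, without covariates. A gene was called when its adjusted p was below 0.05 and its log2 fold change beyond 1 in either direction. DESeq2 1.42.0 was an alternative. Interaction, slope on Myh11 and replicate block fits used the same genes. Leave-one-out fits repeated the filter on the remaining tumors, so their tested genes differed. Log2 CPM for correlations and ratios used a prior count of 2, with exact permutation tests (SciPy 1.17.1). Scripts were tested on simulated data. Intervals are exact Poisson at 95% and cover counting error only.

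The 8 genes, the comparison lists and the motifs were chosen with earlier results of these data known. Named genes were the 8 genes, Myh11, Dnmt3a, from each list the genes called or else the 2 highest and 2 lowest by fold change, and the 3 genes most like each tested gene. Others named in the report (Wt1, Foxd3, Cdh19, Erbb3, Chat, Nrtn, Artn, Gdnf, Pecam1, Cdh5, Kdr and Cdx2) were chosen after their values were seen. Some genes of the lists are not reported here.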

Additional observations from a re-analysis of the deposited data

Results flagged for a closer look

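Myh11 went in opposite directions under the 2 label prefixes. The mean of Dnmt3a+/Δ tumors minus that of control tumors was -85.1 CPM in BMT18 (2 tumors against 2) and 178 CPM in BMT8 (2 tumors against 1, the muscle-poor control tumor 3), and every Dnmt3a+/Δ tumor was below the controls in the first and above the control in the second. The interaction of graft and prefix had an unadjusted p of 0.00592 for Myh11, 0.0117 for Vip and 0.0229 for Gfap by edgeR's quasi-likelihood test, with an adjusted p of 1.00 for each, while 4.62% of tested genes had an unadjusted p under 0.05. The part of control tumor 3 in these values cannot be told apart from that of the prefix, since it is the only control tumor of BMT8. None of the 8 genes or Myh11 had a single Dnmt3a+/Δ tumor far enough from the other 3 to stand out by Dixon's test. With 4 values per gene this test can find only a very distant tumor, so it does not show that none stood apart. For Vip, Dnmt3a+/Δ tumor 2 was at 2.61 CPM and the other 3 at 0.467 to 1.10 CPM.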

How the results depend on the processing

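Depth limits S100b, Sox10 and Elavl4, which had at most 12 counts in a tumor and did not pass the main filter on low counts, and the 3 control tumors limit all group tests. Apart from leaving out tumors, 104 alternatives were computed, of which 95 kept direction and call. DESeq2 called 304 genes in place of 0 and brought Ret past the threshold (log2 2.04). In BMT18 alone the fold change of Myh11 turned to -0.95, and without the graft in the fit the slope of Ret on Myh11 turned to 0.0755. The difference in the log2 ratio to Myh11 turned positive when the mean of the smooth muscle list replaced Myh11, for Elavl4 (0.41), Uchl1 (0.22) and Vip (0.63), and with a prior count of 0.5 for Elavl4 (0.30) and Vip (0.47). The cause of these changes was not tested. In control tumor 3 Sox10, Gfap, Elavl4 and Vip had 0 counts. Their log2 ratio to Myh11 there was the same for each (-4.11), a value that depends on the prior count.

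Leaving out each tumor in turn, edgeR called 0 genes every time. The log2 fold change ran from 1.82 to 2.28 for Ret, 0.86 to 1.39 for Uchl1, 0.37 to 1.52 for Tubb3, 0.25 to 1.42 for Vip, -0.20 to 0.96 for Gfap and -0.54 to 0.69 for Myh11. With DESeq2, a fit added after seeing the data, it ran from 1.84 to 2.30 for Ret, -0.18 to 1.02 for Gfap and -0.53 to 0.73 for Myh11. Slopes on Myh11 ran from -0.36 to 0.59 for Gfap, -0.56 to 0.70 for Vip and -0.32 to 0.13 for Tubb3. Correlations with Myh11 ran from -0.44 to 0.88 for Gfap, -0.71 to 0.94 for Vip, -0.22 to 0.76 for Uchl1, -0.33 to 0.34 for Tubb3 and -0.41 to 0.24 for Ret. Ratios to Myh11 ran from -2.50 to 1.26 for S100b, -2.81 to 0.51 for Sox10, -1.85 to 0.56 for Gfap, -1.50 to 1.63 for Elavl4, -1.76 to 1.65 for Uchl1, -2.74 to 1.23 for Tubb3, -1.23 to 0.98 for Vip and -1.16 to 3.09 for Ret. The lowest correlation of each gene and the sign changes of slopes for Vip and Gfap came without control tumor 3. Without it the ratio turned positive for each gene but Ret, which was positive already. The ratio also turned positive for Vip without Dnmt3a+/Δ tumor 1 (0.030) or 3 (0.72) and for Elavl4 without Dnmt3a+/Δ tumor 3 (0.29), and it turned negative for Ret without control tumor 1 or 2 or Dnmt3a+/Δ tumor 2 or 4.

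Same-numbered tumors of the 2 groups had correlated deviations of 0.57, 0.07 and -0.04, so the replicate numbers do not pair the tumors. With the replicate block the log2 fold changes were 1.76 for Ret (adjusted p = 0.413 by edgeR), 1.19 for Uchl1, 1.70 for Vip, 1.05 for Tubb3, 0.93 for Gfap and 0.44 for Myh11, with no call changed.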
